A study of Mus musculus with 2 samples.

Results

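The genes described here encode the subunits of the proteasome, its assembly chaperones, its activators and its inhibitor, in mouse pancreatic islets with and without a change in the retinoblastoma protein Rb. They were taken from both arrays as every gene probe whose name starts with Psma, Psmb, Psmc, Psmd, Psme or Psmf followed by a number, with the immunoproteasome subunits Psmb8, Psmb9 and Psmb10 set apart. This gave 42 gene names (53 probes) of 34844 gene names on the array. Of these, 16 belong to the core particle, 17 to the regulatory particle and 8 are chaperones, activators and an inhibitor. The last one, Psmc3ip, carries the prefix only: it encodes a factor of meiotic recombination and not a subunit.

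Islets of control mice were compared with islets of RbΔK7 knock-in mice, whose Rb resists phosphorylation, on 2 two-colour Agilent arrays. An array paired a mutant sample, in Cy5, with a control sample, in Cy3. Each gene thus has 2 log2 ratios of mutant over control, from pairs 1 and 2 (the replicate numbers of the labels), whose islets were grown and harvested independently. All 4 samples were islets freed with collagenase, picked by hand and frozen at once. The labels state neither the age or strain of the mice, nor how many mice gave a sample, nor the genotype of the controls beyond the word control. Rb restrains the E2F transcription factors that drive S phase genes, and phosphorylation by cyclin-dependent kinases normally releases this brake. No Cre driver or cell type is named for the knock-in allele. Both arrays lay on 1 slide and the dyes were never exchanged, so genotype and dye cannot be told apart.

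The proteasome degrades proteins that carry a chain of ubiquitin. Its core particle is a barrel of outer rings of alpha subunits (Psma genes) and inner rings of beta subunits (Psmb genes), and Psmb5, Psmb6 and Psmb7 carry the peptidase sites. The regulatory particle caps the barrel: its base holds a ring of ATPases (Psmc genes) that unfold the substrate, and its lid holds Psmd14, the enzyme that removes the ubiquitin chain. Beta cells make and fold large amounts of proinsulin, and proteins that fail to fold in the endoplasmic reticulum are degraded by the proteasome.

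In the control channel 37.0% and 38.1% of gene spots were well above background of pair 1 and pair 2, and in the mutant channel 41.0% and 48.2%. Markers of the cell types in islet preparations differed between samples. Of 28 acinar marker genes 25 were tested, and their median log2 ratio was 0.41 in pair 1 and -5.11 in pair 2. Their summed log2 level was 20.75 and 21.97 in the controls and 21.16 and 17.16 in the mutants, so it was low in 1 mutant sample. The 6 Reg genes, which acinar cells also express, had medians of -0.17 and -5.80. All 12 stromal markers were tested, with median ratios of 1.64 and 1.38, and all 12 lay above 0 on both arrays, as 33.1% of all tested genes did. Their summed log2 level was 12.92 and 15.00 in the controls and 14.66 and 16.32 in the mutants. The 8 markers of alpha, delta and PP cells had medians of 1.29 and 0.15, the 7 endothelial markers 0.46 and 0.58, the 7 duct markers 0.53 and 0.40, and the 11 tested leukocyte markers 0.13 and 0.43. The 11 beta cell markers had medians of -0.57 and 0.25, with Ins1 and Ins2 well above background in all samples, which fits the tissue label. Not all tested markers were well above background in every sample. In the control of pair 1, 9 of 12 stromal, 9 of 11 leukocyte and 6 of 7 duct markers were, and in its mutant 12, 11 and 7. In whole islets, fewer cells of a type and less RNA per cell cannot be told apart.

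No proteasome gene passed the test between mutant and control islets. Of the 42 genes, 39 were tested, meaning that their probe was well above background in either dye on both arrays. By limma with Benjamini-Hochberg adjustment over all 22266 tested probes, 0 rose and 0 fell at an adjusted p under 0.05, where 0.368% of all tested probes rose and 0.0135% fell. At an unadjusted p under 0.05 by limma there were 3 of the 39 tested members (Psme3, Psme4 and Psmd9). This was so for 2168 of all 17104 tested genes, and for 11.3% of all tested probes. With a trended and robust prior 0 members were called, but so were 0 of all tested probes, which says nothing about the members. The members' median log2 ratio was 0.018 in pair 1 and 0.034 in pair 2, beside 0.022 and 0.030 over all 17104 tested genes. Above 0 on both arrays were 12 members, 30.8% of those tested, and 33.1% of all tested genes. Below 0 on both arrays were 9, or 23.1%, and 25.1% of all tested genes. These counts hold for loess, which sets the centre of each array at each brightness: with median centring of the arrays instead, all 39 members lay above 0 on both arrays. Without the acinar and Reg probes 0 members were called, and the core and regulatory medians were 0.018 and -0.0071. This leaves those probes out of the fit and of the loess curve and does not remove acinar RNA from the samples. The part of any cell type's RNA in the members' ratios was not tested.

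The members' mean ratios lay closer to 0 than those of the array. Their SD was 0.168 over the 39 members, 0.085 over the core particle and 0.148 over the regulatory particle, beside 0.323 over all tested genes. A mean within 0.2 of 0 was found for 32 of the 39 members (82.1%) and for 66.0% of all tested genes. This closeness was not particular to the members. Of 36 tested pathway genes outside them, described below, 72.2% lay within 0.2 of 0, with an SD of 0.220. Among these, the SD was 0.104 over 8 proteins that dock on the proteasome and 0.669 over 3 immunoproteasome subunits. Genes of like brightness were not compared. The members' spots were bright, with a median intensity above that of 82.2% of tested genes. Brightness is a property of the probe as well as of the transcript, so it does not rank the genes by abundance. For all 39 members limma's 95% interval lay within 1 log2 unit of 0, which was so for 16088 of the 17104 tested genes. At the median these intervals reached 0.33 to either side of the mean. They are not adjusted for the number of probes, so 0.33 is not the limit of detection. Larger differences could also be missed: Psme3, with a mean of 0.53, had an adjusted p of 0.260 by limma.

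**Figure D1:**
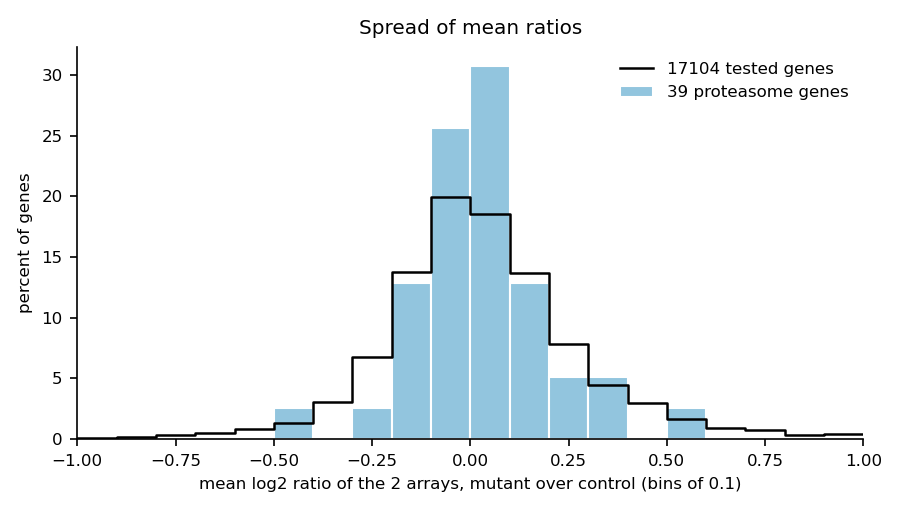
Distribution of mean log2 ratios of mutant over control (x axis, mean of the 2 arrays, bins of 0.1) as a percent of genes (y axis), for the 39 tested proteasome genes (bars) and all 17104 tested genes (line). The bars at -0.1 to 0 and 0 to 0.1 hold 25.6% and 30.8% of the proteasome genes, against 19.9% and 18.6% of all tested genes; 261 tested genes and 0 proteasome genes lie beyond the plotted range.

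Within the core particle 14 of 16 genes were tested. The alpha ring forms the gate through which substrates enter. Its testis subunit Psma8 was not above background in any sample, and of the other 7 genes 3 lay above 0 on both arrays and 2 below. The ring's median log2 ratio was 0.15 in pair 1 and -0.010 in pair 2, which differ in sign. Highest was Psma1, with log2 levels of 10.59 and 10.73 in the controls and 10.80 and 10.92 in the mutants. Both mutant samples lay above both controls, and the log2 ratios of 0.21 and 0.19 averaged 0.20 ± 0.012 (SD, n = 2), with an adjusted p of 0.644 by limma. Here and below, a lack of overlap between 2 mutants and 2 controls is a description and not a test. Its share over all tested genes was not counted. It is pointed out only for some of the members that showed it. Psma2, Psmb1, Psmc1, Psmc5, Psmd11 and Psmf1 showed it as well. Lowest was Psma7, with ratios of -0.067 and -0.16, averaging -0.11 ± 0.067 (SD, n = 2; adjusted p of 0.817 by limma), where the mutant levels (11.14 and 11.17) lay below both control levels (11.21 and 11.34). Psma4 was read by a pair of probes, with means of 0.10 and 0.25. The other 4 had means from -0.063 for Psma3 to 0.11 for Psma2.

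The beta ring carries the peptidase sites and was the tightest group of all, with means from -0.095 to 0.035 and an SD of 0.044 over 7 genes. None of its tested genes lay above 0 on both arrays, 2 lay below (Psmb1 and Psmb3), and 5 changed sign between arrays. The thymus subunit Psmb11 was not above background in any sample. Of the peptidase subunits, Psmb5 (the chymotrypsin-like site) had log2 levels of 12.39 and 12.68 in the controls and 12.39 and 12.73 in the mutants. Its ratios were -0.0030 and 0.053, so the pairs differed more from each other than mutant from control. Psmb6 (the caspase-like site) was highest of the ring, with ratios of -0.076 and 0.15, and Psmb7 (the trypsin-like site) had -0.061 and 0.034. Lowest was Psmb1, a subunit without a peptidase site, with ratios of -0.053 and -0.14, averaging -0.095 ± 0.059 (SD, n = 2; adjusted p of 0.857 by limma).

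The stretches of messenger RNA that the probes read are shown for the peptidase subunits Psmb5 and Psmb7, for 1 alpha subunit and for 3 subunits of the regulatory particle that the next paragraphs describe. Each is given in lower case, 5′ to 3′, as deposited, with its position on mm9. The genes were picked by name, and in each probe shown a reading frame runs through all 60 bases without a stop codon. This does not place a probe in coding sequence, and it also held for the brighter probe of Psmb5, which is not shown. The positions of Psmb7, Psmc4 and Psmd11 span 20420, 242 and 515 bases of genome for 60 bases of probe, so these probes cross an exon junction. The Psmb5 probe shown is the dimmer of a pair, with ratios of 0.062 and -0.25.
Psma6 (alpha ring), chr12:56511127-56511186, plus strand: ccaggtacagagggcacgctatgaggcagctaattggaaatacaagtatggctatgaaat
Psmb5 (beta ring), chr14:55233161-55233220, minus strand: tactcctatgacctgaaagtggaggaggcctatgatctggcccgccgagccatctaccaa
Psmb7 (beta ring), chr2:38468966-38489385, minus strand: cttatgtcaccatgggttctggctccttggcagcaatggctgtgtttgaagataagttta
Psmc4 (ATPase ring), chr7:28827132-28827373, minus strand: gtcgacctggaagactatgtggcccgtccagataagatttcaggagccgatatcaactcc
Psmd11 (lid), chr11:80283406-80283920, plus strand: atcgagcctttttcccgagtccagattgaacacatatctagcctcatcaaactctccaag
Psmd14 (lid), chr2:61599058-61599117, plus strand: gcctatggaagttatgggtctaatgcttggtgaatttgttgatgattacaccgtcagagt

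**Figure D2:**
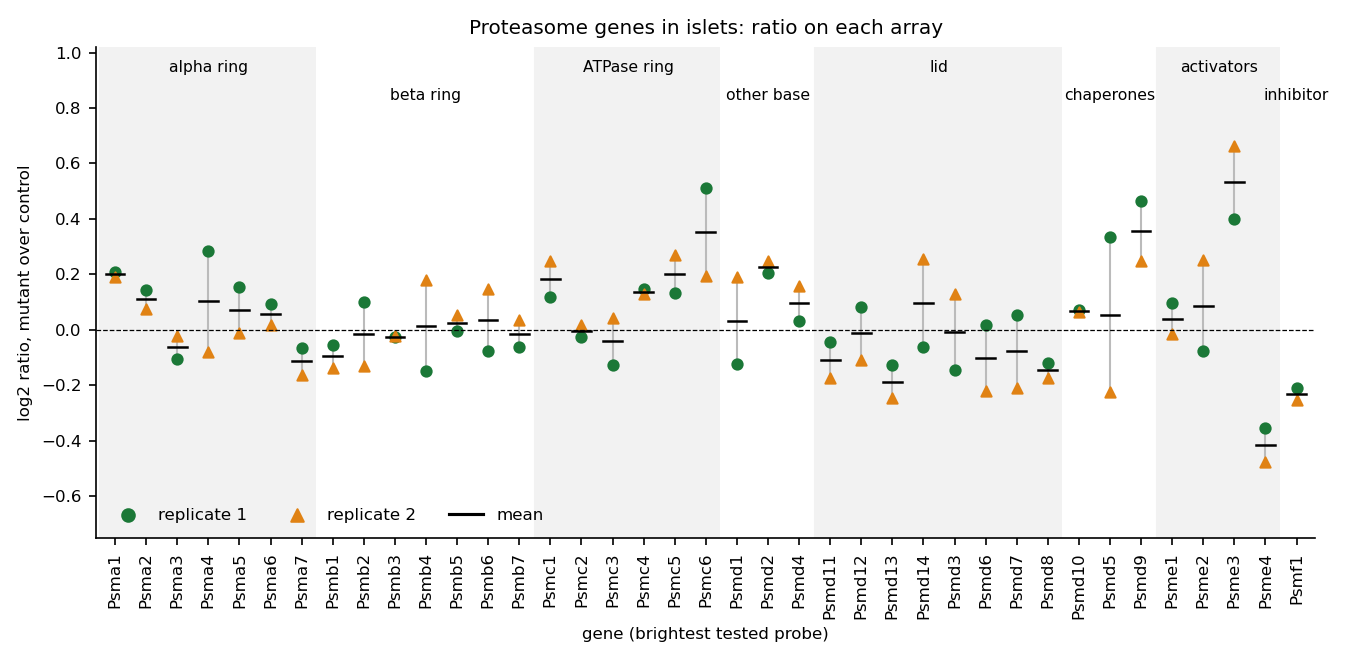
Log2 ratio of mutant over control (y axis) of the 39 tested proteasome genes (x axis, grouped by their place in the complex) in pair 1 (circles) and pair 2 (triangles), with the mean as a bar. Beta ring genes lie within 0.1 of 0 by their mean, most ATPase ring genes lie above 0 and no lid gene lies above 0 on both arrays after loess; Psme3 is highest and Psme4 lowest. With median centring of the arrays all points move above 0.

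In the regulatory particle all 17 genes were tested, 6 lay above 0 on both arrays and 3 below. The ATPases that unfold substrates and push them into the barrel, Psmc1 to Psmc6, had a median log2 ratio of 0.13 in pair 1 and 0.16 in pair 2. After loess 4 of the 6 lay above 0 on both arrays (Psmc1, Psmc4, Psmc5 and Psmc6) and 0 below. Psmc6 was highest: its log2 levels were 8.44 and 8.62 in the controls and 8.96 and 8.82 in the mutants. Both mutants lay above both controls, and the ratios of 0.51 and 0.19 gave a mean of 0.35 ± 0.23 (SD, n = 2; adjusted p of 0.451 by limma). Lowest was Psmc3, with ratios of -0.13 and 0.044, a mean of -0.042 and an adjusted p of 0.947 by limma. Its other probe had ratios of 0.016 and 0.097.

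The other subunits of the base hold and recruit substrates. Psmd2, a scaffold that binds ubiquitin-like domains, was highest of them at 0.20 and 0.25, or 0.23 on average (SD 0.032, n = 2; adjusted p of 0.599 by limma). Its control levels were 10.28 and 10.46, and the lower of its mutant levels, 10.48, lay just above them. Psmd4, a receptor for ubiquitin chains, had ratios of 0.031 and 0.16. Psmd1, the other large scaffold, had -0.12 and 0.19.

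The lid removes ubiquitin chains and had a median log2 ratio of -0.054 in pair 1 and -0.17 in pair 2. After loess none of its 8 genes lay above 0 on both arrays and 3 lay below: Psmd8, Psmd11 and Psmd13. With median centring of the arrays all 8 lay above 0. Psmd13 was lowest, with log2 levels of 9.58 and 9.90 in the controls and 9.45 and 9.65 in the mutants. The groups overlapped, since the mutant of pair 2 lay above the control of pair 1, and the mean ratio was -0.19 ± 0.085 (SD, n = 2; adjusted p of 0.671 by limma). Highest by its mean was Psmd14, the deubiquitinase of the lid, with ratios of -0.063 and 0.26 that differ in sign and an adjusted p of 0.869 by limma. Psmd8 had ratios of -0.12 and -0.17, and both mutant levels (9.01 and 8.94) lay below both control levels (9.13 and 9.11).

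The ATPase ring stood above the lid, by a difference of medians of 0.18 in pair 1 and 0.34 in pair 2. Taken from the mean ratios, the difference was 0.25. This pair of groups was singled out after their values were seen, and 2 arrays allow no permutation test of a difference between groups of genes that could pass, so it is a description. A shift of a whole array moves both medians alike, so the centring of the arrays could not change the difference. Over the 11 ways of processing these same 2 arrays it lay between 0.21 and 0.31, highest with median centring, which also leaves out the loess curve. Several of these ways could not move it. The trended prior and the other filters leave the members' ratios as they are (0.25). Both median centrings differ by a shift only (0.31), and the series matrix repeats the processed signals (0.28). The range is thus no measure of how stable the difference is. The ATPase ring was also brighter, with median control levels of 10.57 and 10.66 against 9.35 and 9.40 for the lid. The part of brightness in the difference was not tested.

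**Figure D3:**
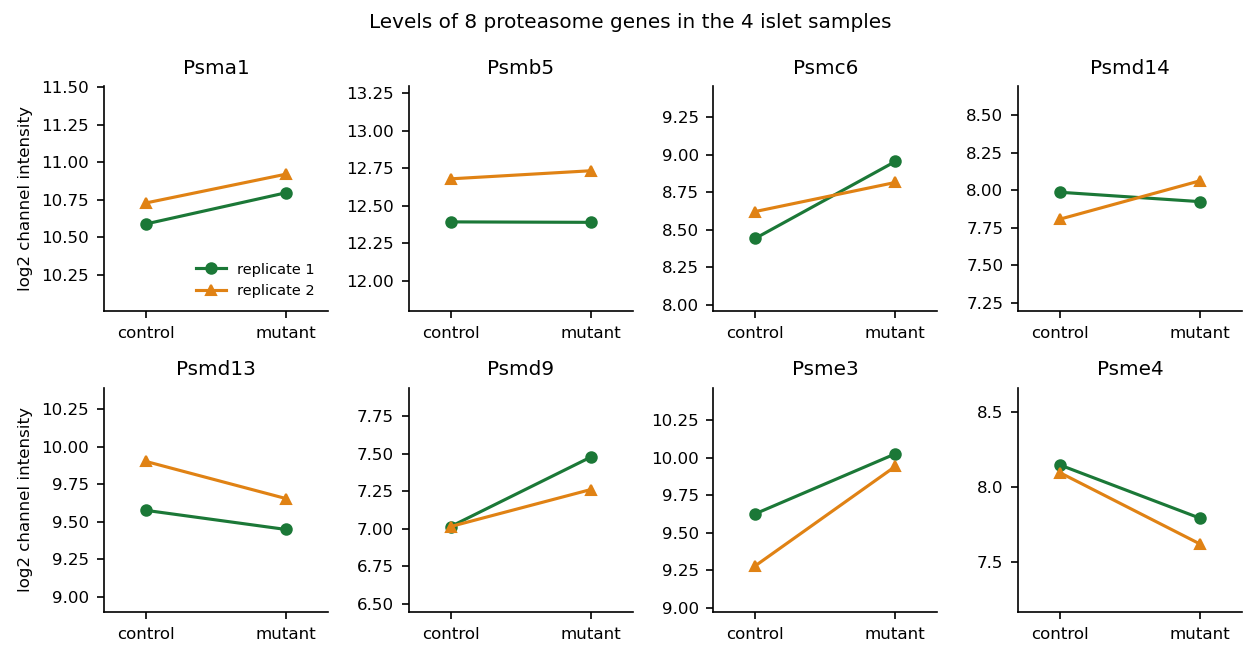
Log2 channel intensity (y axis, each panel spanning the same 1.5 log2 units) of 8 proteasome genes in the control and the mutant sample of pair 1 (circles) and pair 2 (triangles). Levels are after loess and quantile normalisation of mean intensities between the arrays. The lines of Psma1, Psmc6, Psmd9 and Psme3 rise in both pairs and those of Psmd13 and Psme4 fall in both, while Psmb5 and Psmd14 do neither; with median centring in place of loess all of these ratios are above 0.

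By the SD of mean ratios, 0.298 over 8 genes, the factors around the proteasome spread more widely than its subunits. Psme3 and Psme4 lie farthest out among them. By interquartile range the 8 genes spread less than the regulatory particle (0.18 against 0.21) and more than the core particle (0.091). The chaperones Psmd5, Psmd9 and Psmd10 assist assembly of the base and then leave it. Psmd9 had log2 levels of 7.01 in both controls and 7.48 and 7.26 in the mutants, so both mutants lay above both controls. Its ratios of 0.46 and 0.25 averaged 0.35 ± 0.15 (SD, n = 2). Its limma adjusted p was 0.423. With an offset of 0 it averaged 0.56, and centred on the tested probes 0.19. Its dimmer probe was also above 0 on both arrays, with 0.18 and 0.19. Psmd5 was lowest by its mean, 0.055, and its ratios of 0.33 and -0.22 had opposite signs. Psmd10 lay at 0.070 and 0.065.

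The activators open the core particle in place of the regulatory particle. Psme3, the nuclear activator, was the highest of all members. Its log2 levels were 9.63 and 9.28 in the controls and 10.03 and 9.94 in the mutants, so the groups did not overlap. How many of all tested genes lack such overlap was not counted. The ratios of 0.40 and 0.66 gave a mean of 0.53 ± 0.19 (SD, n = 2), or 1.45-fold, with a p of 0.0100 that became 0.260 after adjustment over all probes (limma). Psme3 is read by 1 probe only, at chr11:101184289-101184348 on the plus strand of mm9, and 68.3% of its 60 bases are T or G. Bases 26 to 55 of the probe are shown because of their runs of TG, in capitals.
Psme3: gTGTGTGTGTGttcgTGTGTGTGTGttaat
Of all tested probes, 222 held 5 or more TG in a row on either strand, Psme3 and the alpha subunit Psma5 among them. Their median log2 ratios were 0.20 in pair 1 and 0.41 in pair 2, beside 0.020 and 0.023 over all tested probes. Of the 222, 0 rose by limma, and 64.9% lay above 0 on both arrays, beside 32.4% of all tested probes. Psma5 itself had ratios of 0.15 and -0.010. The part of these runs in the ratio of Psme3 was not tested.

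Psme4, an activator known for work on histones in the testis and after DNA damage, was the lowest of all members by its brightest probe. Its log2 levels were 8.15 and 8.09 in the controls and 7.79 and 7.62 in the mutants, without overlap. The ratios of -0.35 and -0.48 gave a mean of -0.42 ± 0.085 (SD, n = 2), 1.33-fold higher in the control, with a p of 0.0216 and an adjusted p of 0.329 (limma). A second probe, in another part of the gene, did not follow it: its ratios were 0.19 and -0.13, with a mean of 0.032. The gap of 0.45 between the pair was the widest among the 10 members with more than 1 tested probe, where the others ran from 0.0061 for Psme2 to 0.17 for Psmd9. Psme1 and Psme2, which interferon induces and which form 1 ring together, had ratios of 0.095 and -0.015, and -0.078 and 0.25. The probe of Psme1 was spotted 10 times on each array, and the SD over these spots was 0.054 and 0.064. The inhibitor Psmf1 stood at -0.21 and -0.25, averaging -0.23 ± 0.030 (SD, n = 2; adjusted p of 0.587 by limma). The ratios of these dim probes grew without the offset: with an offset of 0, the scanner's processed signals and the series matrix, Psmf1 averaged -0.41, -0.60 and -0.60, and Psme4 -0.58, -0.68 and -0.68. With the mean of a gene's probes Psme4 averaged -0.19 and Psmf1, at -0.23, was the lower. Psmf1 was also the lower of them with both kinds of median centring (0.19 against 0.23, and -0.43 against -0.39).

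Across the 39 members the ratios of the arrays correlated weakly, at 0.45 by Pearson and 0.32 by Spearman. Over the 14 core genes Pearson's r was -0.036, and over the 17 regulatory genes it was 0.37. All 17104 tested genes gave 0.24. These are correlations across genes, which share arrays and dyes and are not independent replicates.

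Among pathway genes outside the members, which include the immunoproteasome subunits, none passed the test either. Of 39 such genes 36 were tested. At an adjusted p under 0.05 by limma 0 rose and 0 fell, where 0.368% of all tested probes rose and 0.0135% fell. At an unadjusted p under 0.05 by limma there were 2 (Nfe2l2 and Psmb10). This was so for 2168 of all 17104 tested genes, and for 11.3% of all tested probes. Above 0 on both arrays were 10 of the 36 (27.8%) and below 0 on both were 9 (25%), beside 33.1% and 25.1% of all tested genes. Among factors that switch on proteasome genes, Nfe2l2 was highest, with ratios of 0.34 and 0.32 (limma adjusted p = 0.428), and Mafg, a small Maf partner of it, lowest with -0.41 and -0.10. Of the chaperones that build the core, Psmg2 was highest (0.44 and 0.086) and Psmg4 lowest (-0.20 and -0.097). Of proteins that dock on the proteasome, Txnl1 was highest by its mean (0.14 and 0.16) and Akirin2, which brings proteasomes into the nucleus, lowest (0.071 and -0.26). Of the shuttles and the segregase that deliver ubiquitinated proteins, Nploc4 was highest (0.25 and 0.24) and Rad23b lowest (-0.024 and -0.17). Of the ubiquitin genes and their activating enzymes, Rps27a was highest by its mean (0.13 and -0.064).

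The immunoproteasome subunits replace the peptidase subunits of the core in immune cells and under interferon. Psmb8 was highest of the 3 by its mean, with ratios of 0.064 and 0.61. Psmb10 was lowest, with -0.16 in pair 1 and -1.62 in pair 2 (limma adjusted p = 0.394). Its log2 levels were 12.54 and 12.83 in the controls and 12.38 and 11.21 in the mutants, so it was low in the mutant of pair 2, the sample in which acinar markers were low. In RefSeq it lies between Ctrl, an acinar protease gene, and Lcat, and overlaps neither. The ratios of Ctrl were 0.13 and -4.36. The part of acinar RNA in the ratio of Psmb10 was not tested.

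The promoters of the members were searched on both strands for 3 kinds of motif, from 250 bases before to 50 after the start in RefSeq's table for GRCm38.p6, where 35 of the 42 genes matched. The core of the antioxidant response element, TGACNNNGC, is bound by Nfe2l1 and Nfe2l2 with small Maf proteins, and Nfe2l1 restores proteasome genes when the proteasome is blocked. It was found in 6 of the 35 (17.1%) and in 14.0% of all 27025 genes of the table. CCAAT, read by NF-Y, was found in 14 (40%) and in 41.1% of all genes. An E2F motif (TTTCCCGC, TTTGGCGC, TTTCGCGC or TTTGCCGC) was found in 2, Psmc2 and Psmc4 (5.71%), and in 2.60% of all genes. A match is a description of these letters and not of a bound site.

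The sequences below show the antioxidant and E2F matches that lie wholly before the start, on the gene's own strand, with the match in capitals; CCAAT matches are given as counts only. In Psmc6 and Psmd12 the element lies on the other strand and is printed as its reverse complement. The other matches of these kinds were not wholly before the start, in Psme4 (antioxidant) and Psmc2 (E2F).
Psmb5, chr14:54618008-54618068, minus strand: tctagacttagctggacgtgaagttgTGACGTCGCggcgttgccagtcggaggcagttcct
Psmb6, chr11:70525322-70525356, plus strand: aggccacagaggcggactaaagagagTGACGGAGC
Psmd9, chr5:123228133-123228189, plus strand: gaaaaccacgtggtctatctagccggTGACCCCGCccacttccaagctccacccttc
Psmc6, chr14:45329574-45329631, plus strand: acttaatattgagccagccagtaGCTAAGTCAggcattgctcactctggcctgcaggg
Psmd12, chr11:107479278-107479315, plus strand: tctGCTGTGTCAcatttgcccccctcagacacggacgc
Psmc4 (E2F), chr7:28050136-28050195, minus strand: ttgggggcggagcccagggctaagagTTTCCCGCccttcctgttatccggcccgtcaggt
The genes with the antioxidant element had mean log2 ratios from -0.42 (Psme4) to 0.35 (Psmd9 and Psmc6), with Psmb5, Psmb6 and Psmd12 between -0.013 and 0.035. The genes with an E2F motif had -0.0053 (Psmc2) and 0.14 (Psmc4). Since no member passed the test after loess, neither set could hold a gene that did.

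The count of 0 members called rests on the loess step. With median centring in its place, 25 of the 39 members passed, all higher in the mutant (10 core and 11 regulatory genes among them), where 29.9% of all tested probes passed in that direction. Under that centring the medians of all tested probes themselves stood at 0.39 and 0.84, and the median of their mean ratios at 0.62. Relative to this shift of the whole array, the core median was higher by 0.30 and the regulatory median by 0.27. With each array centred on its tested probes, 1 member passed (Psme3, mean 0.76, limma adjusted p = 0.0454), where 2.63% of all tested probes passed in that direction. Over the 11 ways of processing that kept both arrays, the adjusted p of Psme3 ran from 0.0012 to 0.526 (limma).

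Without loess the log2 ratio moved with brightness over the whole array. With the arrays centred on the tested probes and these split by brightness into 4 equal bins, the dimmest bin had medians of -0.25 and -0.49 and the brightest 0.24 and 0.30. Of the 39 members, 27 lay in the brightest bin and 0 in the dimmest. The core and regulatory medians under that centring, 0.30 and 0.28, lie near those of the brightest bin.

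**Figure D4:**
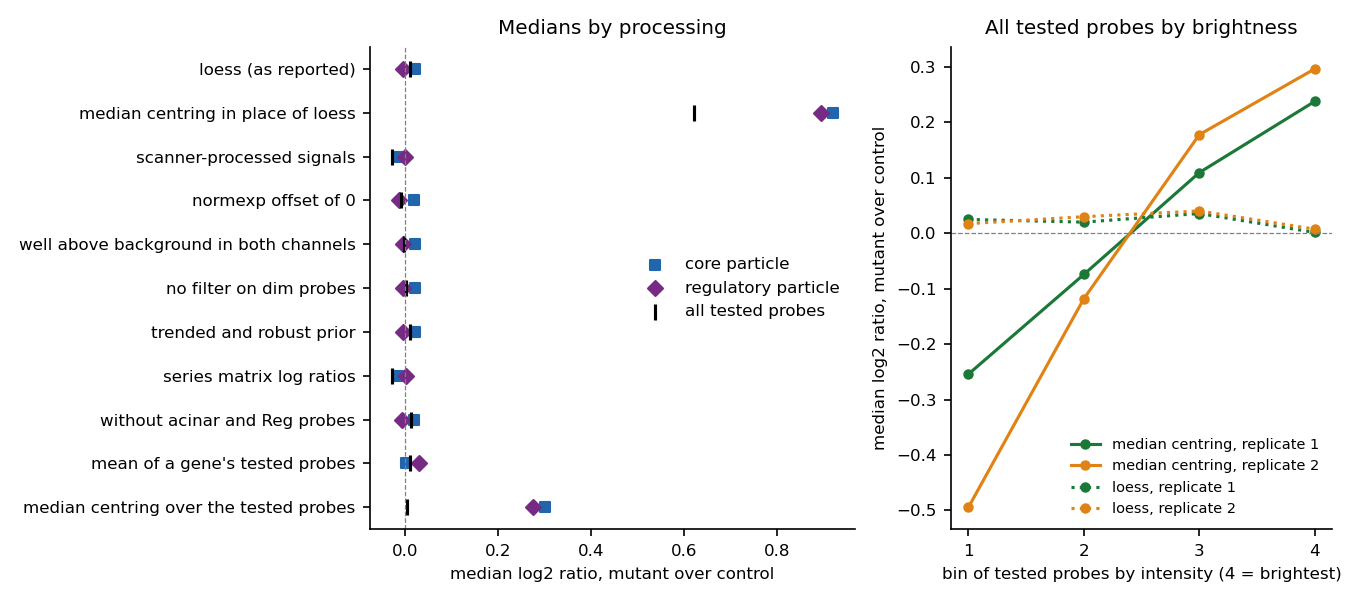
Left, median log2 ratio of mutant over control (x axis) of the core particle (squares), the regulatory particle (diamonds) and all tested probes (bars) under each way of processing (y axis). Right, median log2 ratio (y axis) of all tested probes in 4 equal bins by intensity (x axis) on each array, after loess (dotted) and after median centring over the tested probes (solid); with both arrays kept, both particles' medians lie farthest from 0 under the median centrings, and with the tested probes at 0 the ratio of all probes goes from -0.25 and -0.49 in the dimmest bin to 0.24 and 0.30 in the brightest.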

How the data were processed

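The submitters' processing notes name Agilent Feature Extraction 10.7.3.1 as the scanner software. Its deposited intensity columns, per the file headers, hold each spot's mean signal and local background median per dye, beside processed signals after background and dye correction. Probe positions are those of mm9. The deposited log10 ratios are those of the processed signals, mutant over control, and the authors' series matrix holds the same values. Mean signals were corrected by normexp (offset 50) and loess (span 0.3; control spots and outliers at weight 0) in limma 3.58.1 with R 4.3.3, and spots of 1 probe were averaged. The offset draws dim probes towards 0. The ratios of 22266 probes that were well above background in either dye on both arrays were tested against 0, two-sided, with lmFit and eBayes. With 1 residual degree of freedom, the prior added 4.90. The p-values thus rest more on a spread pooled over all tested probes than on a gene's own 2 pairs, which lay on 1 slide. Psma1, with an SD of 0.012 between pairs, had a standard error of 0.13 in the fit. A gene was represented by its brightest tested probe. Members without a tested probe were Psma8, Psmb11 and Psmc3ip, and 1 of the 3 probes of Psme2 was also not tested. A level is a log2 channel intensity after loess and a further quantile normalisation of mean intensities between the arrays (Aquantile in limma). That step leaves the ratios as they are, but comparisons of levels between arrays depend on it. Levels are for comparison between samples of 1 probe. Probes were renamed through RefSeq's table for GRCm38.p6 where it held them (26762 of 55681 by accession, 3819 by symbol, 634 by synonym). Exon and UTR positions were not analysed here. The fit was tested on simulated data.

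The members, the lists and the alternatives were chosen with earlier results of these data known. Named with values were all members that passed, the highest and the lowest by mean of each subgroup or list, members with 1 sign and a mean of 0.5 or more, and members whose probes differed by over 0.5 (there were none). Psmd8, Psmb5, Psmb7, Psmd4, Psmd1, Psmd10, Psme1, Psme2, the other alpha ring genes named, and the members shown for their sequence were added after values were seen. The alternatives were median centring in place of loess, the scanner's processed signals, an offset of 0, other filters on dim probes, a trended and robust prior, the series matrix, fits without acinar and Reg probes, the mean of a gene's probes, and each array alone. Centring over the tested probes was added after seeing the data. For 1 of the lists, 1 gene that this rule names is not reported here.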

Additional observations from a re-analysis of the deposited data

How the results depend on the processing

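With processed signals, an offset of 0, either other filter on dim probes, a trended and robust prior, the series matrix, no acinar or Reg probes, or the mean of a gene's probes, 0 members were called. With processed signals, an offset of 0, the trended and robust prior, the series matrix and the mean of a gene's probes, 0 of all tested probes or genes were called, so these zeros say nothing about the members, and no call of the array holds under them. With the other filters and without acinar and Reg probes, 0.391%, 0.582% and 0.738% of tested probes rose. Median centring called 25 and centring over the tested probes called 1. The core median (0.020) was -0.016 with processed signals, -0.016 with the series matrix and 0.00081 with the mean of a gene's probes. It was 0.92 with median centring and 0.30 over the tested probes, where the regulatory median (-0.0053) was 0.89 and 0.28. On single arrays the core median ran from -0.015 to 0.0035 and the regulatory median from 0.018 to 0.13. Genes turned sign as follows. With processed signals and with the series matrix, Psmb4 came to -0.040 and -0.039 and Psmc3 to 0.00022 and 0.0018. With the mean of a gene's probes, Psmb5 came to -0.035, Psmc2 to 0.030 and Psmc3 to 0.0074. With median centring 17 genes turned from below to above 0: Psma3 to 0.83, Psma7 to 0.78, Psmb1 to 0.77, Psmb2 to 0.54, Psmb3 to 0.87, Psmb7 to 0.78, Psmc2 to 0.89, Psmc3 to 0.87, Psmd3 to 0.91, Psmd6 to 0.74, Psmd7 to 0.69, Psmd8 to 0.65, Psmd11 to 0.64, Psmd12 to 0.86, Psmd13 to 0.65, Psme4 to 0.23 and Psmf1 to 0.19. With centring over the tested probes 14 did: Psma3 to 0.22, Psma7 to 0.16, Psmb1 to 0.15, Psmb3 to 0.25, Psmb7 to 0.16, Psmc2 to 0.28, Psmc3 to 0.26, Psmd3 to 0.29, Psmd6 to 0.12, Psmd7 to 0.070, Psmd8 to 0.034, Psmd11 to 0.026, Psmd12 to 0.24 and Psmd13 to 0.035. These centrings leave the trend with brightness in place, and the cause of that trend was not tested. The fit is itself the paired analysis, because each ratio is the pair on 1 array. Each array alone gives values with no test. The number of arrays, 2, limits the precision.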
